A study of Mus musculus with 39 samples.

Results

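Small nucleolar RNAs and small Cajal body RNAs were followed across sucrose gradients of mouse liver. The members are all genes whose symbol starts with Snora, Snord or Scarna in the deposited tables, 98 of the 14386 genes listed for either gradient: 33 box H/ACA RNAs (Snora), 56 box C/D RNAs (Snord) and 9 Cajal body RNAs (Scarna). Of these, 78 are listed for gradient 1, 95 for gradient 2 and 75 for both. RefSeq holds 142 genes with such symbols, and the authors kept a gene only where its TPM (a transcript's length-corrected share of the library, scaled to a fixed total) was over 1 in at least 1 fraction. All libraries come from the livers of FVB females of wild-type genotype, with no treatment named, so the only groups are fractions: 2 biological gradients were each loaded with a bead homogenate that had been made without detergent and cleared of nuclei by centrifugation. Gradient 1 has 17 libraries (fractions 4 to 19 and 21), gradient 2 has 22 (fractions 3 to 24), and each fraction of a gradient has 1 library. An equal mass of RNA went into each library, so TPM gives a share of the RNA of that fraction and not an amount. Fractions 4 to 7 are called the light zone, 10 to 13 the middle zone and 16 to 19 the dense zone.

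Box C/D RNAs carry a C box and a D box, bind fibrillarin (Fbl), Nop56, Nop58 and Snu13, and guide methylation of ribose in other RNAs. Box H/ACA RNAs fold into hairpins followed by an H box and an ACA, bind dyskerin (Dkc1), Gar1, Nop10 and Nhp2, and guide the conversion of uridine to pseudouridine. Both kinds act mostly on ribosomal RNA in the nucleolus, and a few (U8, U14 and U22 among them) are needed for its cleavage, whereas Cajal body RNAs are retained in Cajal bodies and guide the same changes in the small nuclear RNAs of the spliceosome. Most are cut out of introns of host genes, many of which encode ribosomal proteins, so reads of unspliced host RNA can fall on a member. They work in the nucleus, and the samples were homogenates from which nuclei had been spun out.

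Sequences of 9 members are printed here because the values below turn on them, from GENCODE M21 on GRCm38, 5′ to 3′ on the RNA's strand and with T for U. In the first 3, capitals mark the part that lies inside the RefSeq entry, which is far shorter than the GENCODE one. Scarna2 (chr3:108554338-108554432, minus strand) and Scarna10 (chr6:125186359-125186461, minus strand) are shown from 30 bases before that part to the end of the RNA. Snora20 (chr17:12922790-12922917, plus strand) is whole.
Scarna2: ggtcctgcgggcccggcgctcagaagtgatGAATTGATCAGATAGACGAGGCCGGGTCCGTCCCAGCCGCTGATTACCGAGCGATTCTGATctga
Scarna10: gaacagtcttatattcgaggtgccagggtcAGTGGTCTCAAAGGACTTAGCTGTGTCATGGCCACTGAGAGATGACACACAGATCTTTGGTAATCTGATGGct
Snora20: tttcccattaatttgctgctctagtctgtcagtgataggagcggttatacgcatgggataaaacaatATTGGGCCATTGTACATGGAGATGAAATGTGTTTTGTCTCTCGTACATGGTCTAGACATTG
Scarna2 has 61 of 414 bases in its RefSeq entry, Scarna10 has 71 of 325 and Snora20 has 61 of 128, in each case at the 3′ side.

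The next 4 are the members with some of the highest levels or steepest profiles. Snora28 (chr12:111540941-111541067, plus strand, in Eif5) has in capitals the letters ANANNA (H box) in the middle of the RNA and ACA in the last 6 bases. Snord104 (chr11:106500993-106501062, plus strand), Snord17 (chr2:144265979-144266216, minus strand, in Snx5) and Snord22 (chr19:8725866-8725991, plus strand, in Snhg1) have in capitals TGATGA (C box) in the first 15 bases and CTGA (D box) in the last 15.
Snora28: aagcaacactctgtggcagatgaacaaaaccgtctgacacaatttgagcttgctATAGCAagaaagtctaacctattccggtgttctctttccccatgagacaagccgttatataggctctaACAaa
Snord104: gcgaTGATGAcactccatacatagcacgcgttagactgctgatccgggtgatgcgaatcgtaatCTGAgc
Snord17: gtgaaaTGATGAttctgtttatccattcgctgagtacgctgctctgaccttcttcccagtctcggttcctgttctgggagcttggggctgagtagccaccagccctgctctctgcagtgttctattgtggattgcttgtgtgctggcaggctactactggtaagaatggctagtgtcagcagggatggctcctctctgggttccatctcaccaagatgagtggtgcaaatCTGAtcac
Snord22: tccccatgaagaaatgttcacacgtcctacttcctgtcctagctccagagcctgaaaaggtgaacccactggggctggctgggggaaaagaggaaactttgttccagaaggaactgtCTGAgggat
TGATGA was not in the first 15 bases of Snord22, which says nothing of a C box with other letters.

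Snord14c (chr9:40803583-40803668) and Snord14d (chr9:40803995-40804080) are copies of U14 in Hspa8 on the plus strand, and capitals mark the aligned positions at which they differ.
Snord14c: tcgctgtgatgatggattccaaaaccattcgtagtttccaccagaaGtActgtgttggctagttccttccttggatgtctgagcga
Snord14d: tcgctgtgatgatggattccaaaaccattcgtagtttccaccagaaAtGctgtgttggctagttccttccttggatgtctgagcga
They are identical at 84 of 86 aligned bases, so reads of one can be assigned to the other, and their separate levels are uncertain. Snord14a, in Rps13, is 79.1% identical to Snord14c. In each gradient the only value of Snord14a above 0 equals that of another copy. It was 12.7 TPM, as was Snord14c, in fraction 4 of gradient 1, and 13.5 TPM, as was Snord14d, in fraction 5 of gradient 2. The level of Snord14a is thus uncertain as well.

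The boxes were counted in all 98 members. On the RNA's own strand, TGATGA in the first 15 bases and CTGA in the last 15 were both present in 30 of 56 Snord members (53.6%), in 0 of 33 Snora members and in 4 of 9 Scarna members. ACA in the last 6 bases together with ANANNA in the middle was present in 28 of 33 Snora members (84.8%), in 1 of 56 Snord members and in 3 of 9 Scarna members. ANANNA alone leaves most letters open and was in 50.0% of the Snord members. The Scarna members were of mixed kinds, with C and D boxes in Scarna6, Scarna9, Scarna10 and Scarna17, and ACA in the last 6 bases of Scarna3a, Scarna3b, Scarna8 and Scarna13.

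Summed TPM of the box H/ACA and box C/D classes was highest in fractions 3 to 6 and several-fold lower from about fraction 9, whereas that of the Cajal body class peaked in fraction 8 through Scarna2. The Snora sum was 1376, 1655, 1318 and 449 TPM in fractions 4 to 7 of gradient 1, and 5780, 3106, 2002 and 962 TPM in the same fractions of gradient 2. In fraction 8 it was 305 and 481 TPM. The Snora class was thus concentrated in the first fractions of both gradients, at levels that differed by up to several-fold between them. The Snord sum was 419, 597, 628 and 476 TPM in fractions 4 to 7 of gradient 1 and 1663, 1187, 915 and 553 TPM in gradient 2, and in fraction 8 it was 533 and 357 TPM. In the dense zone it averaged 84.4 and 86.8 TPM. The first of these rests on fraction 19, since fractions 16 to 19 of gradient 1 held 84.8, 41.1, 0 and 212 TPM, and all 40 listed Snord members were at 0 in fraction 18. The Scarna sum was highest in fraction 8 of both gradients, at 5712 and 4986 TPM, of which Scarna2 made up 79.6% and 62.1%. Without Scarna2 it was highest in fraction 4 of gradient 1, at 1230 TPM beside 1165 TPM in fraction 8, and in fraction 3 of gradient 2, at 2713 beside 1892 TPM. The sums hold entries shorter than the reads, Scarna2 and Scarna10 among them, whose TPM may not be comparable with that of longer ones, so each sum is compared between fractions and not with the other sums.

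**Figure D1:**
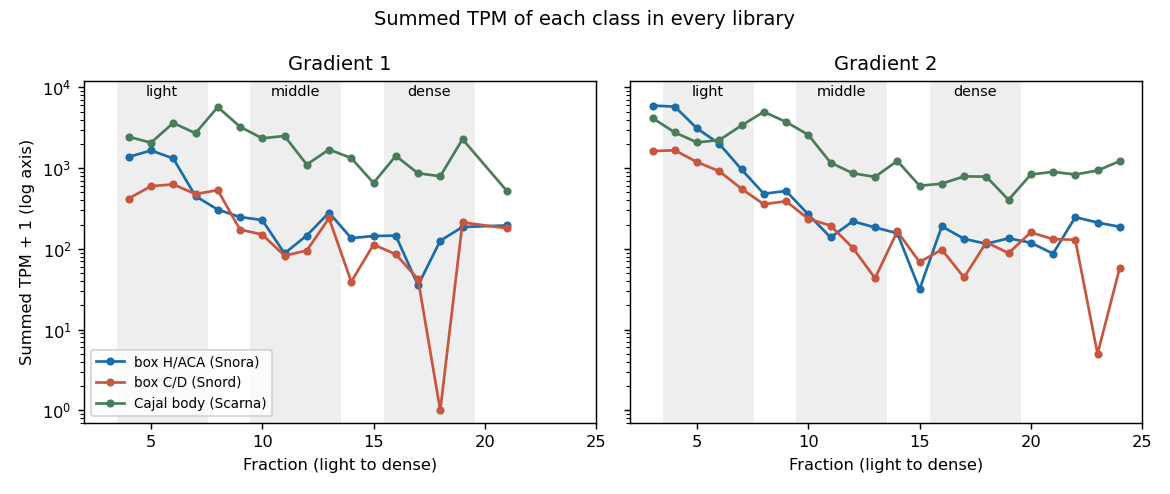
Summed TPM plus 1 of each class (log axis) in every library against fraction number, 1 panel per gradient, 1 point per library, with the 3 zones shaded. The Snora and Snord lines drop from the light zone, and the Scarna line has its highest point at fraction 8 in both panels.

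Averaged over zones, the Snora sum was 2081 ± 1247 TPM (SD, n = 2 gradients) in the light zone, 193 ± 11.9 in the middle and 133 ± 14.2 in the dense zone. The Snord sum was 805 ± 388, 142 ± 1.51 and 85.6 ± 1.73 TPM, and the Scarna sum 2662 ± 67.5, 1631 ± 398 and 997 ± 484 TPM. The light zone exceeded the dense zone by 9.79-fold in gradient 1 and 20.8-fold in gradient 2 for Snora, by 6.29-fold and 12.4-fold for Snord, and by 2.02-fold and 3.99-fold for Scarna. Without the most abundant Snora member of each gradient (Snora20 and Snora68), the Snora ratio was 61.4 and 17.0, so its order between gradients turned, and without Scarna2 the Scarna ratio was 3.35 and 4.99. Without fraction 19 of gradient 1, the dense-zone Snord sum of that gradient was 42.0 TPM and its ratio 12.6, and the Scarna ratio 2.65. With 2 samples per zone an exact permutation test cannot give a two-sided p under 0.333, so the classes were not tested against each other. Each sum leans on a few members. Scarna2 made up 61.2% and 53.3% of the Scarna sum of the light zone, Snora20 made up 87.8% and 43.5% of the Snora sum of the dense zone, and Snora68 made up 3.40% of the Snora sum in fraction 4 of gradient 1 against 44.2% in gradient 2.

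Single members were compared between zones with limma across all genes on log2(TPM + 1), on which scale the differences that follow are given and changes of low genes are understated. Of the 75 members in both tables, 69 passed the filter (a mean TPM of at least 1 over the 24 libraries), and 41 of these were lower in the dense zone than in the light zone at an adjusted p under 0.05. None was higher, also at an unadjusted p under 0.05 (0 members). Over all 11754 genes tested, 39.6% were called lower in the dense zone and 22.3% higher. The share of members called lower is larger, but 20 of the 41, Scarna3a, Scarna3b, Scarna8, Snord14a, Snord14c, Snord32a and Snord64 among them, had a mean under 1 TPM over the 16 libraries of the other zones and passed the filter only through the light zone, so this count is a description. By class, 19 of 28 Snora, 16 of 32 Snord and 6 of 9 Scarna members were lower. With a light zone of fractions 5 to 7, 33 of 69 members and 10 of 32 Snord members were lower, beside 41.4% of all genes, so the Snord share was then below that of all genes. The median difference over the tested members was -1.58 in gradient 1 and -2.20 in gradient 2, against -0.40 in either gradient over all genes. It was -2.06 and -3.30 for Snora, -0.77 and -1.75 for Snord, and -2.45 and -1.99 for Scarna. These medians follow the filter, since with one of 10 TPM the median, with both gradients averaged, was -4.37 for 14 Snora, -4.35 for 6 Snord and -2.09 for 6 Scarna members. Without the filter, 44 of 75 members and 42.2% of all genes were lower.

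The calls rest on sparse values. Only 49.0% of the light-zone values of all members were above 0 in gradient 1 and 49.7% in gradient 2, falling to 14.7% and 17.1% in the dense zone. Over the 11371 genes whose mean reached 1 TPM in each gradient, 98.5% and 98.7% of all values were above 0. The values keep no read counts, so a gene listed at 0 cannot be called absent. Of the 41 members called lower, 19 were listed at 0 in every dense-zone library of both gradients, and 9 were above 0 in fewer than 2 light-zone fractions of at least 1 gradient, as 32 had 2 or more in both.

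**Figure D2:**
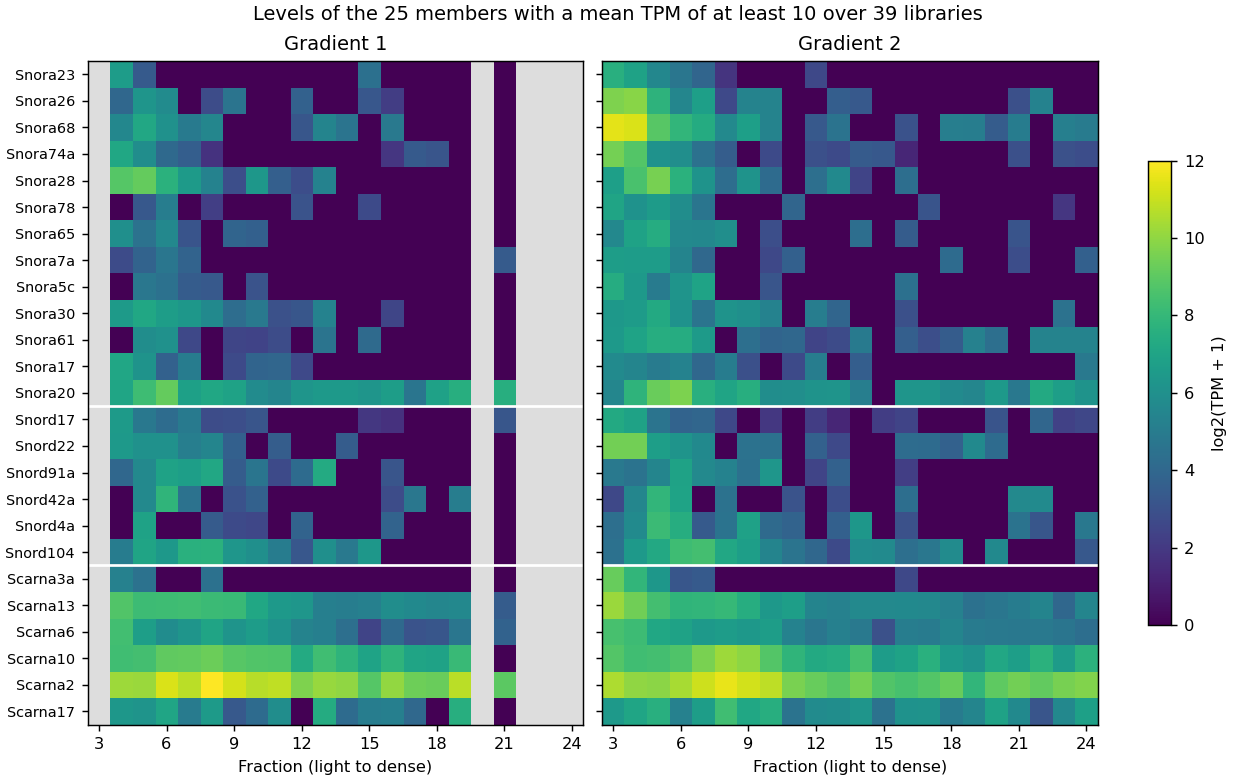
Heat map of log2(TPM + 1) for the 25 members with a mean TPM of at least 10 over the 39 libraries, fractions from left to right, Snora, Snord and Scarna from top to bottom, gray where no library exists. Most Snora and Snord rows are bright only at the left, and the rows of Snora20, Scarna2, Scarna10, Scarna13, Scarna6 and Scarna17 extend to the right.

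Among the box H/ACA RNAs, which guide pseudouridine formation in ribosomal RNA, Snora28 had the largest difference on the mean of the gradients, and Snora26 a larger one in gradient 2 (-7.47). Its TPM was 452, 573, 200 and 92.7 in fractions 4 to 7 of gradient 1 and 377, 754, 203 and 71.9 in gradient 2, with a dense-zone value of 0 in 4 of 4 fractions of gradient 1 and of 19.4, 0, 0 and 0 in gradient 2. The light and dense zones did not overlap in any fraction. The difference was -7.48 (SE 0.46, adjusted p = 0.000301, limma). Snora30 (in an intron of Srcap) was 91.0, 142, 102 and 79.4 TPM in the light zone of gradient 1 and 93.6, 154, 68.7 and 23.9 TPM in gradient 2, and at most 6.61 TPM in any dense-zone fraction. Its difference was -5.74 (SE 0.28, adjusted p = 0.000301), and it was highest in fraction 5 of both gradients, as was Snora28. Snora17 was 134, 69.9, 12.1 and 31.5 TPM, then 43.5, 31.0, 39.3 and 15.1 TPM, and was listed at 0 in all dense-zone libraries.

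Snora26 and Snora68 moved the same way at very different levels in the 2 gradients. Snora68 was 46.7, 146, 66.3 and 29.2 TPM in the light zone of gradient 1 and 2552, 471, 241 and 166 TPM in gradient 2, so no fraction of gradient 1 reached the lowest of gradient 2. The difference from light to dense zone was -4.73 in gradient 1 and -5.57 in gradient 2 (adjusted p = 0.00961). Snora26, in Dancr, was 15.2, 76.1, 54.7 and 0 TPM against 925, 215, 44.3 and 108 TPM, with a difference of -5.47 (SE 1.11, adjusted p = 0.00731). Snora74a was highest in the first fraction sequenced of each gradient, at 140 TPM in fraction 4 and 720 TPM in fraction 3, with a difference of -4.53 (SE 0.89, adjusted p = 0.00663). In fractions 4 and 5, which both gradients have, it was 140 and 57.6 TPM in gradient 1 and 437 and 69.1 TPM in gradient 2.

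Snora20, in an intron of Tcp1, differed from these in that it stayed above 0 in every dense-zone library. It was highest in fraction 6 of both gradients, at 567 and 789 TPM, and its TPM over the 8 libraries of a zone had a median of 268 and a highest value of 789 in the light zone. The lowest, median and highest values were 43.7, 64.7 and 89.6 TPM in the middle zone and 24.7, 75.6 and 186 TPM in the dense zone. The light and dense zones overlapped in gradient 1, through fractions 18 and 19 (117 and 186 TPM), and not in gradient 2. The difference from light to dense zone was -1.37 in gradient 1 and -2.63 in gradient 2 (SE of the mean 0.30, adjusted p = 0.0024), and that from middle to dense zone 0.17 (SE 0.30, adjusted p = 0.732).

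Among the box C/D RNAs, which guide ribose methylation, most were listed at 0 in most libraries: the median Snord member was above 0 in 2 of 17 libraries of gradient 1 and 2 of 22 of gradient 2. Snord17, whose profiles in the 2 gradients were alike, was 90.9, 27.0, 18.1 and 28.8 TPM in the light zone of gradient 1 and 120, 23.6, 13.2 and 14.4 TPM in gradient 2. Its highest dense-zone values were 2.24 and 4.42 TPM, and its difference was -4.46 (SE 0.26, adjusted p = 0.000301). Snord22 (U22, needed for processing of the small subunit's ribosomal RNA) was 86.7, 66.6, 66.2 and 34.5 TPM and then 706, 104, 71.9 and 50.1 TPM. It was listed at 0 in the dense zone of gradient 1 but at 17.9, 17.4, 12.2 and 51.4 TPM in that of gradient 2, and its difference of -4.24 (SE 1.46, adjusted p = 0.0464) did not pass the threshold under 5 of the alternatives, where it was -3.06 to -5.92 at adjusted p of 0.0582 to 0.0866.

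Snord104 and Snord91a had their highest values past the first fractions. Snord104 was highest in fraction 8 of gradient 1 (202 TPM) and fraction 7 of gradient 2 (337 TPM), with 31.4 and 88.1 TPM in fraction 4, and its difference from light to dense zone was -6.52 and -3.87 in the gradients (mean -5.19, SE 1.18, adjusted p = 0.011). Its dense zone was listed at 0 throughout in gradient 1 and at 20.2, 25.7, 54.9 and 0 TPM in gradient 2. Snord91a, in an intron of Tsr1, was highest in fraction 6 of gradient 2 (119 TPM) but in fraction 13 of gradient 1 (159 TPM), beside 0 TPM in fraction 14. Its dense-zone values were 7.88 and 3.65 TPM in fraction 16 and 0 in the others, with a difference of -5.06 (SE 0.51, adjusted p = 0.000701). The neighbors Snord4a and Snord42a, in introns of Rpl23a, were both highest in fractions 5 or 6. Snord42a was 0, 48.8, 229 and 21.9 TPM in the light zone of gradient 1 and 45.0, 234, 123 and 0 TPM in gradient 2 (difference -2.67, SE 0.68, adjusted p = 0.0165). Snord4a was 0, 121, 0 and 0 TPM and then 51.8, 293, 175 and 9.67 TPM, with a difference of -3.11 (SE 1.38) that passed the threshold only with the gradient as a block (adjusted p = 0.0953 without and 0.0407 with it).

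Snord118, the U14 copies, members of Rpl13a and members of imprinted loci were listed at 0 in most libraries. Snord118 (U8, needed for the large subunit) was above 0 in 2 libraries of gradient 1, 11.4 TPM in fraction 5 and 20.5 TPM in fraction 9, and in 4 of gradient 2, 27.7, 11.3, 9.55 and 6.08 TPM in fractions 3, 4, 8 and 9. It was under the filter of the zone comparison. Of the U14 copies, Snord14a and Snord14c were both listed at 12.7 TPM in fraction 4 of gradient 1 and at 0 in its other fractions. In gradient 2, Snord14c was 23.9, 33.4 and 54.1 TPM and Snord14d 102, 89.0 and 13.5 TPM in fractions 3 to 5. Snord32a, in an intron of Rpl13a, was 40.7 and 6.02 TPM in fractions 4 and 5 of gradient 1 and 18.1 and 22.3 TPM in fractions 4 and 6 of gradient 2, and 0 elsewhere. Snord33 and Snord34 of the same host, Snora73a, Snora73b and Snord13 were in neither table. Of 17 Snord116 genes in RefSeq, 0 were in the tables, and Snord64 was above 0 in 1 and 2 libraries.

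Of the Cajal body RNAs, Scarna13, Scarna6, Scarna3a, Scarna3b and Scarna8 were highest in fractions 3 to 5, and Scarna2 and Scarna10 in fraction 8. Scarna13, which has ACA in its last bases, was 426, 294, 311 and 316 TPM in fractions 4 to 7 of gradient 1 and 663, 342, 228 and 237 TPM in gradient 2, where fraction 3 held 1187 TPM. Its dense-zone values ran from 21.3 to 57.8 TPM, and the zones did not overlap (difference -2.92, SE 0.21, adjusted p = 0.000334). Scarna6 was 329, 106, 55.6 and 76.6 TPM and then 299, 141, 120 and 89.4 TPM in the light zone, against 7.44 to 43.7 TPM in the dense zone, again without overlap (difference -2.54, SE 0.45, adjusted p = 0.00455). Scarna3a and Scarna3b, which share the box H/ACA fold, were seen mostly in the first fractions. Scarna3a was 37.8, 22.1, 0 and 0 TPM and then 239, 79.4, 8.17 and 9.65 TPM in the light zone, with 585 TPM in fraction 3 of gradient 2 and 21.2 TPM in fraction 8 of gradient 1. The differences were -3.50 for Scarna3a and -3.32 for Scarna3b, given with no test because both passed the filter only through the light zone.

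Scarna2 and Scarna10, in contrast, were highest in fraction 8 of both gradients. Scarna2, a box C/D guide for the spliceosome's U2 RNA, was 1211, 1187, 2529 and 1712 TPM in fractions 4 to 7 of gradient 1 and 1041, 979, 1374 and 2184 TPM in gradient 2, then 4547 and 3095 TPM in fraction 8. Its dense-zone values were 1073, 660, 620 and 1749 TPM in gradient 1 and 365, 448, 588 and 240 TPM in gradient 2. The zones overlapped in gradient 1 through fraction 19. The difference of -1.26 (SE 0.46) did not pass the threshold (adjusted p = 0.0559) and did with the gradient as a block (adjusted p = 0.00569). Scarna10 was 323, 336, 545 and 555 TPM and then 321, 338, 413 and 760 TPM in the light zone, 640 and 1210 TPM in fraction 8, and 68.5 to 281 TPM in the dense zone (difference -1.63, SE 0.28, adjusted p = 0.00396).

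The 2 profiles ran together: Pearson's R between Scarna2 and Scarna10 was 0.86 over 17 libraries and 0.96 over 22 (Spearman's rho 0.92 and 0.84), and between Scarna2 and Scarna13 it was 0.54 and 0.35 (rho 0.68 in either gradient), so the pairs differed less by rank. These are descriptions, since neighboring fractions share material and all genes of a library share its total. Scarna17 had no stable place: it was highest in fraction 19 of gradient 1 (181 TPM) and in fraction 8 of gradient 2 (322 TPM), with R = 0.03 between gradients over the 17 shared fractions and a difference of -1.46 (SE 0.67, adjusted p = 0.104, and 0.00502 with the block). Scarna9 was at most 54.3 TPM and Scarna8 at most 15.9 TPM, each above 0 in 1 to 5 libraries of a gradient. With the block, 9 of 9 Scarna members and 50.0% of all genes were lower in the dense zone. Of the 9, Scarna3a, Scarna3b and Scarna8 passed the filter only through the light zone, so this count is a description.

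**Figure D3:**
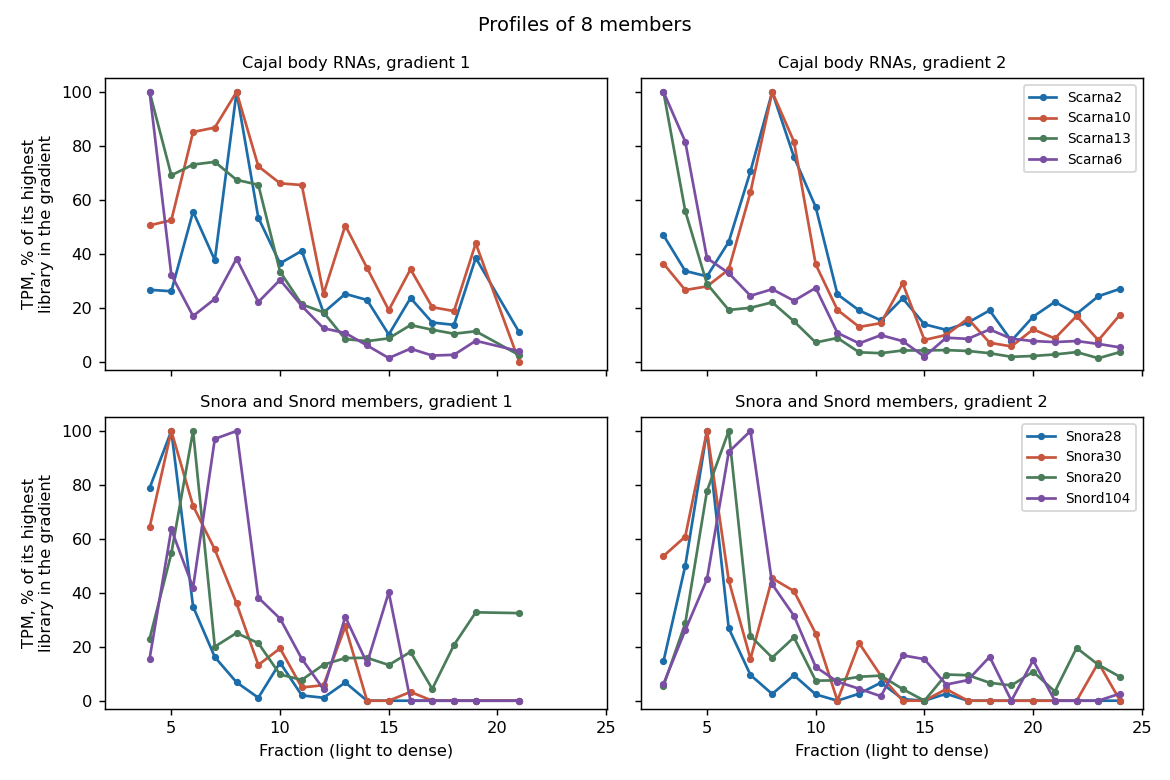
TPM of 8 members as a percent of each member's highest library in that gradient, against fraction number, 1 point per library, gradient 1 at left and gradient 2 at right. Scarna2 and Scarna10 peak at fraction 8, Scarna13 and Scarna6 at the first fraction sequenced, Snora28 and Snora30 at fraction 5, Snora20 at fraction 6 and Snord104 at fractions 7 to 8.

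In the middle zone 36 of 69 members were lower than in the light zone and 0 higher, where 24.1% of all genes were called lower and 23.5% higher. The 20 members that passed the filter only through the light zone are all among the 36, so this count is a description too. With the block, 46 of 69 members (8 of 9 Scarna and 22 of 28 Snora) and 35.0% of all genes were lower, and the same 20 members are among the 46. With a light zone of fractions 5 to 7, 29 were lower and 1 higher, Snord100, named after its values were seen, beside 25.4% of all genes lower and 20.9% higher. Snord100 was at 0 in fractions 5 to 7 of both gradients. Its middle zone held 13.2 TPM in fraction 12 of gradient 1 and 5.56 TPM in fraction 10 of gradient 2, and 0 otherwise. It passed the filter mostly through the middle zone, so this call is a description. From middle to dense zone 4 members were lower and 0 higher, beside 22.5% of all genes called lower and 4.79% higher. With the block, 7 of 69 members and 39.3% of all genes were lower. The 4 were Snora28 (-3.51, SE 0.46, adjusted p = 0.00722), Snord91a (-3.24, SE 0.51), Snora30 (-3.15, SE 0.28) and Snora17 (-2.29, SE 0.31), the last 3 at adjusted p between 0.00700 and 0.00958. At an unadjusted p under 0.05, no member was higher in either comparison with the zones as first set. By then 52.8% and 58.3% of the Scarna values, but 26.7% and 28.8% of the Snora and 15.6% and 16.0% of the Snord values, were still above 0 in the middle zone.

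Within the light zone the first fractions were compared with the next. Of 64 members that passed the filter over 32 libraries, 14 were higher in fractions 4 to 5 than in fractions 6 to 7 and 0 lower (1 at an unadjusted p under 0.05), beside 4.67% of the 11739 genes tested that were called higher there and 13.1% that were called lower. Of the 14, 8 had a mean under 1 TPM over the other 28 libraries and passed the filter only through fractions 4 to 5, so this count too is a description. The median difference was 0.41 in gradient 1 and 1.68 in gradient 2. Scarna3a (4.36, SE 1.03, adjusted p = 0.0163) and Scarna3b (2.66, SE 0.50, adjusted p = 0.00561) were among the 14, as were Snord14c and Snord118 at low levels, whereas Snord14d and Snord64 belong to the 8 that passed only through fractions 4 to 5. With the block 19 were higher and 2 lower, the latter being Scarna2 and Snord91a, beside 14.2% of all genes higher and 32.5% lower. With a filter of 10 TPM on the mean, 1 of 26 members was called beside 5.41% of all genes, so no excess of members was seen there. A pseudocount of 0.1 gave 9 of 64 members beside 3.5% of all genes.

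Profiles were set beside the length of the RefSeq entry, by which TPM is scaled. Of 98 members, 40 have a RefSeq entry shorter than the 75-base reads, among them 34 of 56 Snord, 2 of 33 Snora (Snora20 and Snora61) and 4 of 9 Scarna members (Scarna2, Scarna9, Scarna10 and Scarna17). The length in which a fragment of such an entry can start may be very small, so its TPM may not be comparable with that of other genes, which also limits the class sums and the shares of single members in them. Over the 69 tested members, the 24 short ones had a median difference from light to dense zone of -0.73 and -1.72 in the gradients, and 10 were called lower. The other 45 had -2.03 and -2.47, and 31 were called lower. Over all genes 39.6% were called lower, a share near that of the short members. Both counts hold members that passed the filter only through the light zone. Of the short ones 18 are Snord members, and by class the medians of short and other members, with both gradients averaged, were -0.97 and -1.41 for Snord, -1.55 and -2.92 for Scarna, and -2.73 and -2.62 for Snora, of which only 2 are short. Of the TPM in the 17 shared fractions, the short members held a median of 44.1% and 63.3% in fractions 4 to 7 and the others 79.3% and 85.8%, where the median gene held 24.6% in gradient 1 and nearly the same in gradient 2. Spearman's rho between length and difference was -0.39 over the 69 members, -0.08 over the 28 Snora members, -0.33 over the 32 Snord members and -0.52 over the 9 Scarna members. The part of entry length in the profiles was not tested.

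**Figure D4:**
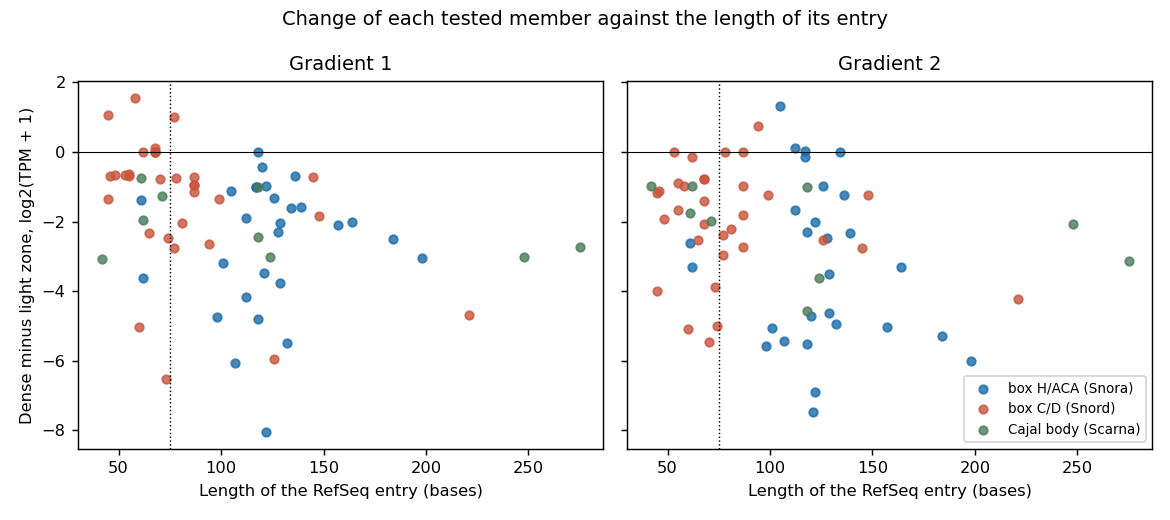
Difference from light to dense zone on the log2(TPM + 1) scale against the length of the RefSeq entry, 1 point per tested member, 1 panel per gradient, with the read length of 75 bases dotted. The points left of the dotted line, mostly Snord, have a median closer to 0 than the others, and no class is free of low points.

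Most members lie in host genes that were themselves measured. By GENCODE M21, 47 of 98 members lie within an intron of a gene on the same strand, 45 overlap an exon of at least 1 of its transcripts, retained introns included, and 6 (Scarna2, Scarna17, Snora17, Snora43, Snord104 and Snord118) lie in no such gene. For 61 tested members in 50 measured hosts, the median difference from light to dense zone was -1.83 for the members and -2.16 for the hosts, with both gradients averaged. Members were below their host in both gradients in 23 pairs and above it in both in 21. By class, 12 of 25 Snora, 5 of 29 Snord and 6 of 7 Scarna members were below their host in both gradients, and 9, 12 and 0 above. A member listed at 0 in most light-zone libraries cannot fall on this scale as far as an abundant host, so the counts above the host are set in part by the scale.

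Several of the steepest members differed far more between zones than their hosts did. Snord22 did so in gradient 1 (-5.94 beside -2.52 for Snhg1) and not in gradient 2 (-2.54 beside -2.68). Eif5, a translation initiation factor and host of Snora28, had a difference of -0.40 and -0.96 in the gradients where Snora28 had -8.05 and -6.91. Both were highest in fraction 5, with R = 0.82 in either gradient. Srcap, a chromatin remodeler and host of Snora30, had -0.29 and -0.55 beside -6.05 and -5.42. Tsr1, host of Snord91a, had 0.30 and 0.06 beside -5.02 and -5.09, and Atg16l1, host of Scarna6, had 0.79 and 0.67 beside -3.02 and -2.06. Rpl13a, host of Snord32a, had -2.71 and -3.03 beside -2.05 and -2.20. Whether reads were shared between members and hosts was not tested.

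**Figure D5:**
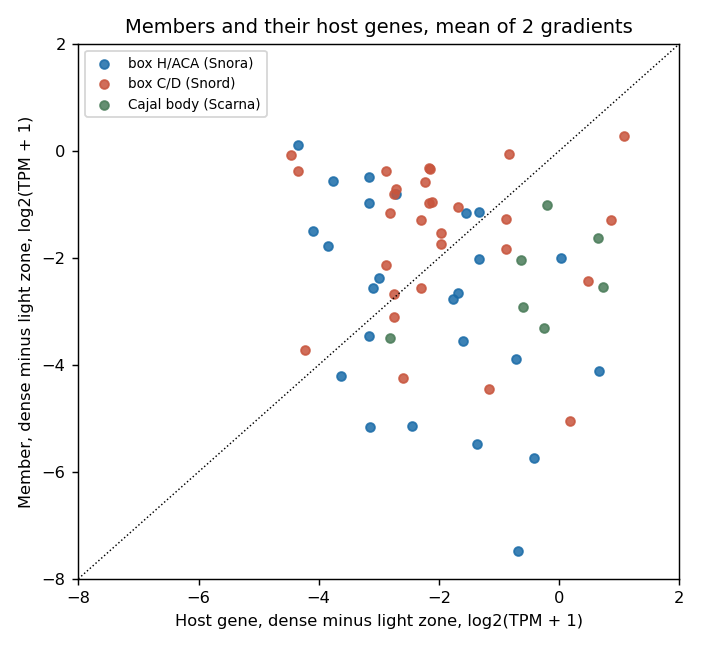
Difference from light to dense zone on the log2(TPM + 1) scale of 61 members (vertical) against that of their host genes (horizontal), means of 2 gradients, with the line of equality dotted. Of the 7 Scarna points none lies above the line in both gradients, and Snora28, Snora30 and Snord91a lie farthest below it.

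Profiles of the members were less alike between the gradients than those of all genes, and the abundant members were more alike than the rest. Over the 17 shared fractions, the median of Pearson's R between gradients was 0.55 for the 52 members whose mean reached 1 TPM in each gradient (0.55 for Snora, 0.53 for Snord and 0.81 for Scarna), against 0.90 for the 11371 genes that did so. Where the mean reached 10 TPM in each gradient it was 0.77 for 18 members and 0.94 for 6729 genes. For the 68 tested members with a value, some of which were below 1 TPM in a gradient, it was 0.52. The highest values among these were 0.97 for Snord17 and Snora28, and the lowest was -0.18, for Snora52, which was named after its values were seen. Fraction numbers need not mean the same density in both gradients. Of the members listed, 55 of 78 in gradient 1 and 74 of 95 in gradient 2 were highest in fraction 7 or a lighter one, where 41.8% and 38.7% of those 11371 genes were.

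Other noncoding RNAs were compared in the same way, where 39.6% of all genes were lower in the dense zone and 4.67% higher in fractions 4 to 5. Malat1, Neat1, Xist and Kcnq1ot1, long RNAs kept in the nucleus, were 4 of 4 lower in the dense zone, with a summed level of 323 and 592 TPM in the light and 23.1 and 28.9 TPM in the dense zone. Of 9 other short noncoding RNAs tested, among them Rpph1 and Rmrp of RNase P and RNase MRP, Terc, Rnu11 and Rnu12, 9 were lower in the dense zone, and 7 of 10 were higher in fractions 4 to 5 than in 6 to 7. Rpph1 alone took 22.1% of the TPM in fraction 3 of gradient 2, 13.4% in its fraction 4 and a still larger share in fraction 4 of gradient 1, so other RNAs of those libraries are lowered in TPM. Of 138 microRNA loci tested, whose entries are also short, 68 were lower and 4 higher in the dense zone, where 22.3% of all genes were higher, with a median of -1.18 beside -0.43 over all genes. Of 10 long host RNAs of the Gas5 and Snhg kind, 9 were lower. The part of nuclear RNA left in the homogenate was not tested.

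Most mRNAs of the core proteins that bind these RNAs were higher outside the light zone. Over all genes, 22.3% were called higher in the dense than in the light zone. Of the 4 box C/D core proteins tested, Fbl (2.10, SE 0.15, adjusted p = 0.00033), Nop56 (1.88, SE 0.22) and Nop58 (1.30, SE 0.19) were higher in the dense than in the light zone and Nhp2l1, the gene of Snu13, was lower (-0.71, SE 0.15). Of the 4 box H/ACA core proteins, Dkc1 (0.79, SE 0.19), Gar1 (1.10, SE 0.20) and Nop10 (0.94, SE 0.16) were higher and Nhp2 was at -0.03 (SE 0.19, adjusted p = 0.892). All 8 were higher in the middle than in the light zone, where 23.5% of all genes were called higher. Of 13 assembly factors, 8 were higher in the dense zone and 0 lower, and of the Cajal body proteins Coil and Wrap53 neither passed the threshold.

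Hepatocyte markers (Alb, Apoa1, Ttr, Cps1 and Cyp2e1) were abundant in every library, and their summed level ran from 6839 to 49731 TPM. In the dense zone 2 of these 5 were lower and 1 was higher, beside 39.6% and 22.3% of all genes, against which the other markers are to be read too. Kupffer cell markers ran from 35.2 to 154 TPM in sum, and 3 of 4 were lower in the dense zone. Sinusoidal endothelial markers ran from 22.7 to 73.6 TPM (2 of 3 lower), erythroid ones from 73.8 to 864 TPM (2 of 2 lower) and cholangiocyte ones from 1.72 to 6.59 TPM (0 of 2 lower or higher). All members together took 0.0891% to 0.656% of the TPM of a gradient 1 library and 0.0626% to 1.18% of a gradient 2 library. The number of genes over 1 TPM was 10645 to 12558 in gradient 1 and 10532 to 12235 in gradient 2.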

How the data were processed

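RNA of fractions of 2 liver gradients was sequenced as stranded libraries depleted of ribosomal RNA, with paired 75-base reads. Kallisto was run by the authors on a RefSeq index for mm10, and they deposited 1 TPM value per symbol and fraction for genes that passed 1 TPM somewhere in the gradient. The labels also name bcl2fastq 2.16.0.10. The version of Kallisto is not given in the sources used here. TPM keeps no read counts, so depth and counting error are unknown and precision comes only from the spread between gradients. The 2 gradients are biological replicates in the study's methods.

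From these values, log2(TPM + 1) was averaged over the 4 fractions of each zone and gradient (24 libraries, 6 values per gene), and over pairs of fractions for fractions 4 to 19 (32 libraries). Contrasts were fitted with limma 3.58.1 in R 4.3.3 (trend in eBayes) over all genes in both tables whose mean reached 1 TPM, and p-values were adjusted over all genes tested by the Benjamini-Hochberg method. Standard errors are limma's. The fit was tested on simulated data with independent normal errors. These hold neither the pairing of zones within a gradient nor the many values of 0. Each gradient carried 1 homogenate, which pairs its zones. Deviations of the gradients correlated between zones across genes (r = 0.665, 0.540 and 0.798), and the gradient was a block in an alternative fit. No value column was left unmatched (0 columns).

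Named members are all Scarna, the 5 Snora and 5 Snord with the highest mean TPM, the 4 largest falls of each among members whose mean reached 10 TPM, and fixed lists; no Snora or Snord rise met the rule. Members, lists and tests were chosen with earlier results of these data known, and names given beside a count of 5 or fewer were chosen after their values were seen. Positions, hosts and sequences are from GENCODE M21 and entry lengths from RefSeq for GRCm38.p6, the assembly of mm10, and all 98 symbols matched both. Python 3.11.15, pandas 2.3.3, NumPy 2.4.6 and SciPy 1.17.1 were used. Alternatives were other pseudocounts, filters, scalings and zone borders.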

Additional observations from a re-analysis of the deposited data

How the results depend on the processing

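No called difference of a member changed its sign under the alternatives run. Of differences that were not called, 4 of 69 between dense and light zone, 7 between middle and light, 8 between dense and middle and 2 of 64 between the pairs of fractions did so under at least 1 of them. A stable sign was in part set in advance. The block and the filters leave each difference as it is. Of the 41 members called lower in the dense zone, 19 were at 0 in all its libraries. Another pseudocount or a rescaling could not turn the sign of these 19. A light zone of fractions 5 to 7 gave 1 member higher in the middle zone (29 lower) and the block gave 2 members lower in fractions 4 to 5, where 0 were called otherwise. Of all genes, 20.9% and 32.5% were called so. The 1 member higher, Snord100, rests on 1 middle-zone library of each gradient. When only genes with a mean of 10 TPM or more were tested, 21 of 26 members were lower in the dense than in the light zone (35.5% of all genes) and 17 of 26 in the middle than in the light zone (20.4%). That mean includes the light zone, and Scarna3a reached it with 0 TPM in the middle zone of both gradients. Both counts are therefore descriptions. With the same filter, 1 of 26 was higher in fractions 4 to 5 than in 6 to 7 (5.41% of all genes), and a pseudocount of 0.1 gave 9 of 64 (3.5%). With the gradient as a replicate block, 47 of 69 members were lower in the dense than in the light zone (50.0% of all genes), 46 of 69 in the middle than in the light zone (35.0%) and 7 of 69 in the dense than in the middle zone (39.3%). The 20 members that passed the filter only through the light zone are among both the 47 and the 46. Of the named members the block added calls for Scarna2, Scarna9, Scarna17 and Snord4a and removed none. The median difference from light to dense zone moved to -2.75 with a pseudocount of 0.1, -4.00 with the filter of 10 TPM and -1.36 with a light zone of fractions 5 to 7. By class the pseudocount of 0.1 gave -4.45 for Snora, -2.14 for Snord and -2.60 for Scarna, and the filter of 10 gave -4.37 for Snora, -4.35 for Snord and -2.09 for Scarna. Leaving out 1 gradient leaves no spread between samples, so it gave values and no calls: -1.58 to -2.20 for all members, -2.06 to -3.30 for Snora, -0.77 to -1.75 for Snord and -1.99 to -2.45 for Scarna, and light-over-dense ratios of the sums of 9.79 to 20.8, 6.29 to 12.4 and 2.02 to 3.99. Without its most abundant member in each gradient (Snora20 in gradient 1, Snora68 in gradient 2), the Snora ratio averaged 39.2 (61.4 and 17.0). Without fraction 19 of gradient 1, left out after seeing the data, the Snord ratio of that gradient was 12.6. Of 178 values under these alternatives of the 20 named members that did not pass the filter only through the light zone, 165 stayed on their side of the threshold, 5 lost the call (all Snord22, at differences of -3.06 to -5.92) and 8 gained it, and the calls of the other 7 are not counted. Quantile normalization moved the median of all genes from -0.43 to -0.05 and left 36 of 69 members lower (12 of 32 Snord), beside 29.9% of all genes lower and 30.7% higher (39.6% and 22.3% without it). Apart from the constructions named, the cause of these moves was not tested. Values of 0 at unknown depth limit most Snord results.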
